A study of Populus tremula x Populus alba with 72 samples.

Results

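Cinnamate 4-hydroxylase (C4H) and 4-coumarate:CoA ligase (4CL) catalyse consecutive steps of the phenylpropanoid pathway. In this account 5 poplar genes of these families, called members, were followed in leaves under ozone: C4H1 (Potri.013G157900), C4H2 (Potri.019G130700), C4H3 (Potri.018G146100), 4CL3 (Potri.001G036900) and 4CL5 (Potri.003G188500). They were chosen by identifier, as the rows of the deposited table with exactly these names, and are 5 of the 34699 genes listed, 3 of them C4H and 2 of them 4CL. Earlier results of these data were known when they were chosen. The numbering within the identifiers places them on chromosomes 13, 19, 18, 1 and 3 of the Populus trichocarpa gene models, and no coordinates were used. The trees were hybrid poplars (Populus tremula x Populus alba) of a single micropropagated clone, INRAE 717-1B4, and were 2.5 months old. They stood in charcoal-filtered air (control), or in the same air with 80 ppb or 100 ppb ozone added for 13 h of the daytime. All groups share this clone and were kept in a chamber setting. The labels do not say which chamber a library came from, so chamber and ozone level cannot be told apart. Leaves of 2 positions, labelled expanded and growing, were sampled on days 2, 8 and 13, which made 18 groups of 4 libraries.

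C4H is a cytochrome P450 of the CYP73 family that hydroxylates cinnamate, the product of phenylalanine ammonia-lyase, to p-coumarate. 4CL then joins p-coumarate to coenzyme A, and the p-coumaroyl-CoA formed is the branch point between the monolignols, from which lignin is made, and the flavonoids and condensed tannins that poplar leaves accumulate. In P. trichocarpa, C4H1, C4H2, 4CL3 and 4CL5 are known from differentiating xylem, where the wall lignifies. In leaves both branches are in use, since veins lignify and the blade makes flavonoids.

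Messenger RNA of whole leaves was sequenced, and the values are normalised read counts: reads assigned to a gene, divided by one size factor per library. Reads assigned to genes came to between 23.2 M and 54.3 M per library, with a median of 39.4 M (M for mega). All 5 members passed the expression filter, among 27780 genes tested. C4H1, C4H2, 4CL3 and 4CL5 had reads in every library, at least 1786, 2216, 655 and 102 of them. C4H3 rested on far fewer: 4698 reads over all 72 libraries, with none in 7 of them. Group values are means ± SD with n = 4, and log2 changes are given ± standard error with the adjusted p of limma (Benjamini-Hochberg over all tested genes within a comparison, called at 0.05, two-sided). The words rose and fell are kept for calls. Whether replicates were separate trees is not stated, and the p-values then reflect only how these libraries vary, which may be technical. In whole leaves, fewer cells of a type and less RNA per cell cannot be told apart. C4H1 and C4H2, and 4CL3 and 4CL5, are related copies, and whether their reads were split or shared between copies was not assessed. Counts were not divided by gene length, so levels are compared between groups of libraries and not between genes.

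**Figure D1:**
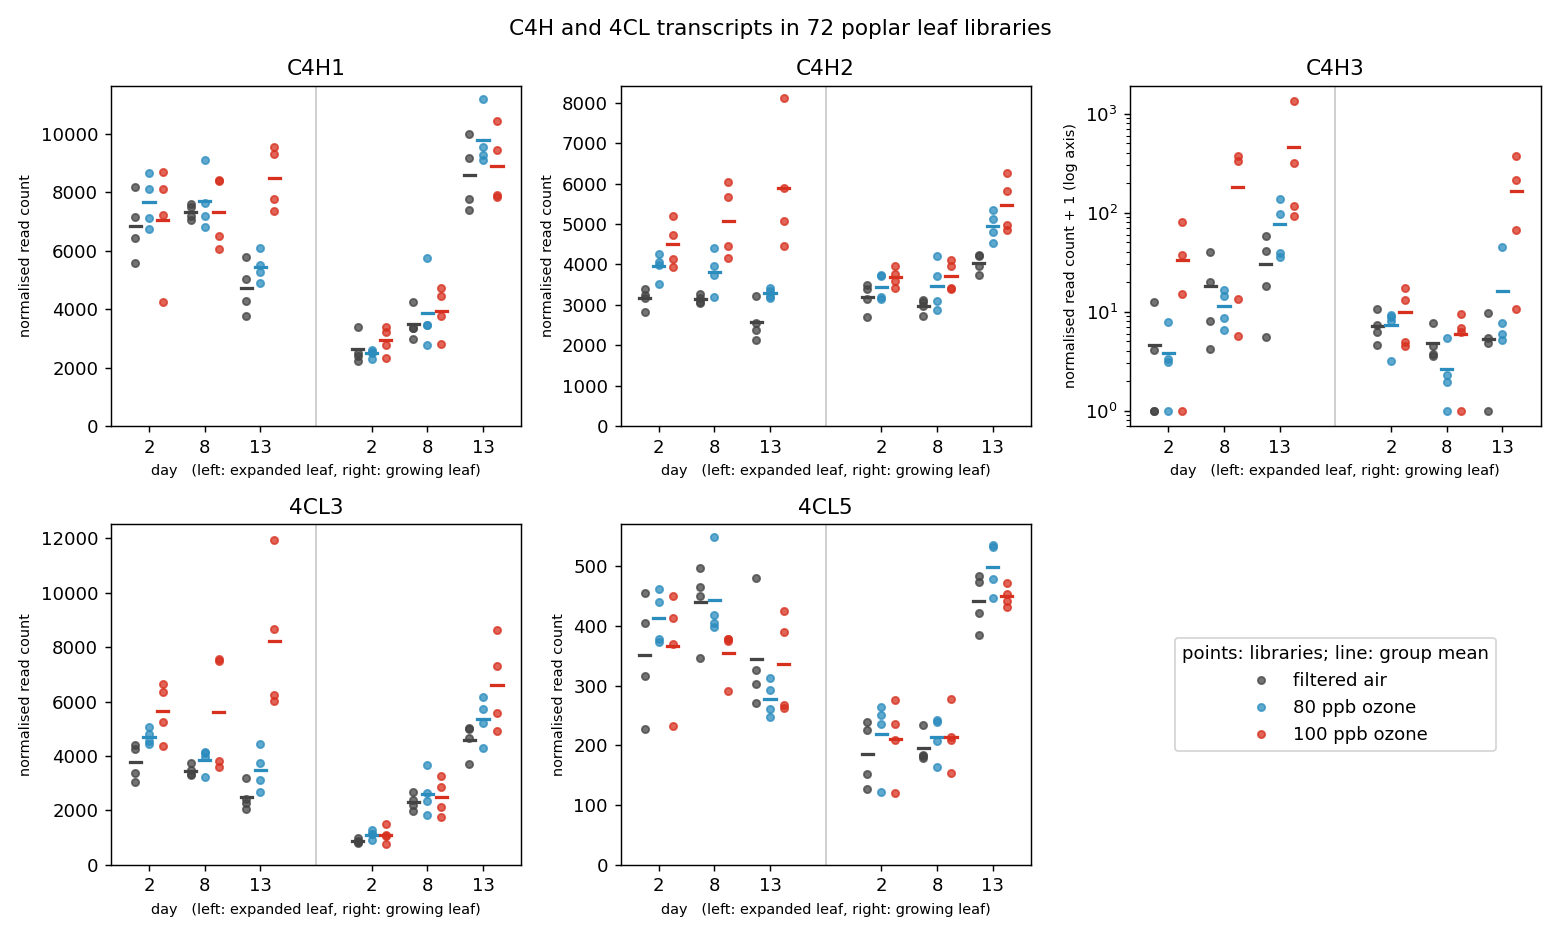
Normalised read counts of the 5 members (y axis; for C4H3 the count plus 1 on a log axis) by day (x axis) in expanded (left) and growing (right) leaves, with 1 point per library, coloured by air, and a line at each group mean. The 24 libraries at 100 ppb include the highest value of C4H2 (8118), C4H3 (1333) and 4CL3 (11957), all in replicate 2 of the expanded leaves of day 13.

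In filtered air, 4CL3 and C4H1 started low in growing leaves and rose in both intervals until day 13, when they stood above the expanded leaves, while C4H2 rose only after day 8. On day 2 the growing leaf libraries held 2409, 3382, 2484 and 2214 normalised counts of C4H1, and the expanded ones 5576, 7152, 6437 and 8180. The groups did not overlap, and C4H1 was lower in growing leaves (log2 change −1.39 ± 0.17, adjusted p = 6.81e-10). For 4CL3, the ligase with the larger change, growing leaves held 986, 799.6, 828 and 864 against 3050, 4401, 3358 and 4265 in expanded leaves, again without overlap (−2.10 ± 0.21, adjusted p = 1.67e-12). 4CL5, its relative, was also lower, with 186 ± 55.1 against 351 ± 100.1 (−0.92 ± 0.22, adjusted p = 0.000296), although growing replicate 1, at 239, overlapped expanded replicate 1, at 228. C4H2 did not pass the test on day 2, with 3187 ± 349.7 in growing and 3163 ± 241 in expanded leaves (0.01 ± 0.12, adjusted p = 0.965). C4H3 had 6.16 ± 2.5 and 3.63 ± 5.41 (1.36 ± 1.09, adjusted p = 0.277). So 3 of 5 members were lower and none higher in growing leaves on day 2, in a comparison where 30.5% of all tested genes were called lower and 32.5% higher.

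On day 8 the same 3 were still lower in growing leaves (27.2% of all tested genes lower, 27.1% higher). C4H1 had 3478 ± 538 against 7336 ± 247 (−1.09 ± 0.17, adjusted p = 4.32e-07) and 4CL5 195 ± 26.5 against 439 ± 64.9 (−1.17 ± 0.22, adjusted p = 1.12e-05). The 4CL3 groups had come closer, with 2301 ± 282 against 3458 ± 200 (−0.59 ± 0.21, adjusted p = 0.0163), and this call was lost without growing control replicate 4 (−0.53, adjusted p = 0.0543). C4H2 was not called at 2975 ± 184 against 3139.8 ± 100.1 (−0.08 ± 0.12, adjusted p = 0.609). When libraries were set to equal totals, the median over all genes moved to −0.32 in this comparison. C4H2 was then called lower (−0.39, adjusted p = 0.016), a value close to that median. C4H3 had 3.87 ± 1.95 in growing and 17 ± 16.1 in expanded leaves and was not called (−1.47 ± 1.09, adjusted p = 0.253).

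By day 13 the order of the leaf positions had turned for C4H1 and 4CL3. C4H1 held 7400, 9985, 9175 and 7751 in growing leaves and 5794, 4274, 5034 and 3777 in expanded leaves, without overlap (0.87 ± 0.17, adjusted p = 0.000143). 4CL3 had 4597 ± 615 against 2484 ± 502 (0.90 ± 0.21, adjusted p = 0.00131), and C4H2 was higher too, with 4032 ± 242 against 2571 ± 469 (0.66 ± 0.12, adjusted p = 6.31e-05). 4CL5 was not called at 441 ± 46.6 against 345 ± 93.3 (0.38 ± 0.22, adjusted p = 0.204). Thus 3 of 5 members were higher and none lower in growing leaves on day 13, beside 15% of all tested genes called higher and 10% lower. C4H3 went the other way without passing the test, with 4.24 ± 3.6 in growing and 29.5 ± 23.2 in expanded leaves (−2.47 ± 1.09, adjusted p = 0.0872). It was called lower without expanded control replicate 1, the expanded library with the fewest C4H3 counts at 4.58 (−3.13, adjusted p = 0.0324). It was also called with equal totals (−2.72, adjusted p = 0.0381), where the median of all genes moved to −0.26, and by DESeq2 (−2.80, adjusted p = 0.0322).

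Within the growing control leaves, 2 members rose between days 2 and 8 and 4 between days 8 and 13. From day 2 to day 8, 4CL3 rose from 869 ± 81.9 to 2301 ± 282 (1.40 ± 0.21, adjusted p = 2.44e-07) and C4H1 from 2622 ± 519 to 3478 ± 538 (0.41 ± 0.17, adjusted p = 0.0399), where 25.6% of all tested genes rose and 26.4% fell. The C4H1 call of this interval was lost without any one of 6 of the 8 libraries. These were day 2 replicates 1, 3 and 4 (adjusted p = 0.0887, 0.0762 and 0.125) and day 8 replicates 1, 2 and 3 (0.0553, 0.159 and 0.0542). It was also lost with equal totals (0.27, adjusted p = 0.201). From day 8 to day 13, C4H1 rose by 1.30 ± 0.17 (adjusted p = 1.86e-08), 4CL5 by 1.18 ± 0.22 (adjusted p = 1.77e-05), 4CL3 by 1.00 ± 0.21 (adjusted p = 0.000145) and C4H2 by 0.44 ± 0.12 (adjusted p = 0.00338), all on the log2 scale. In that interval 21.3% of all tested genes rose and 22.2% fell. C4H3 was called in neither interval, at no more than 9.54 normalised counts in any control library of the growing leaves.

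In expanded control leaves no member was called by limma from day 2 to day 8, where 17.9% of all tested genes rose and 19.1% fell. There 1 member, C4H3, had an unadjusted p under 0.05 (2.26 ± 1.09, adjusted p = 0.0946), and edgeR and DESeq2 called none. C4H3 was called higher there without day 2 replicate 2 (3.00, adjusted p = 0.0355), and 4CL5 with equal totals (0.61, adjusted p = 0.0249), where the median of all genes moved to 0.27. From day 8 to day 13, C4H1 fell from 7336 ± 247 to 4719.8 ± 883 (−0.65 ± 0.17, adjusted p = 0.0298), in an interval where 1.75% of all tested genes fell and 0.151% rose. Day 13 replicates 2 and 4 were the lowest, at 4274 and 3777, and the call was lost without either of them (adjusted p = 0.119 and 0.18). It was lost as well without any one of the 4 day 8 libraries (0.0822, 0.0751, 0.0618 and 0.0576 without replicates 1 to 4), with equal totals (0.0961) and with the compared libraries alone (0.178). 4CL3 (−0.50 ± 0.21, adjusted p = 0.274), 4CL5 (−0.37 ± 0.22, adjusted p = 0.488) and C4H2 (−0.31 ± 0.12, adjusted p = 0.236) also had lower means on day 13 without passing the test.

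At 100 ppb ozone, C4H1, C4H2, C4H3 and 4CL3 rose in expanded leaves by day 13, from 1.81-fold for C4H1 to 3.23-fold for 4CL3 among the 3 with many reads, and 4CL5 was called on no day. The series title concerns ozone-responsive genes during leaf development, and each ozone group was compared with its own control, matched for position and day. On day 2, C4H2 was the only member called, with 5188, 4136, 4726 and 3939 normalised counts at 100 ppb and 2826, 3255, 3180 and 3392 in filtered air, so that all 4 exposed libraries lay above all 4 controls (0.50 ± 0.12, adjusted p = 0.0087). That is 1 of 5 members higher and none lower, beside 4.74% of all tested genes higher and 3.6% lower. The call was lost without 100 ppb replicate 1, the highest library (0.43, adjusted p = 0.0752), and in a model of the compared libraries alone (adjusted p = 0.117). C4H1, the other C4H with reads in every library, was not called, at 7060.3 ± 1970.2 against 6836 ± 1103 (0.01 ± 0.17, adjusted p = 0.985), and 4CL3 missed the threshold at 5659 ± 1046 against 3768 ± 666 (0.58 ± 0.21, adjusted p = 0.0745).

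**Figure D2:**
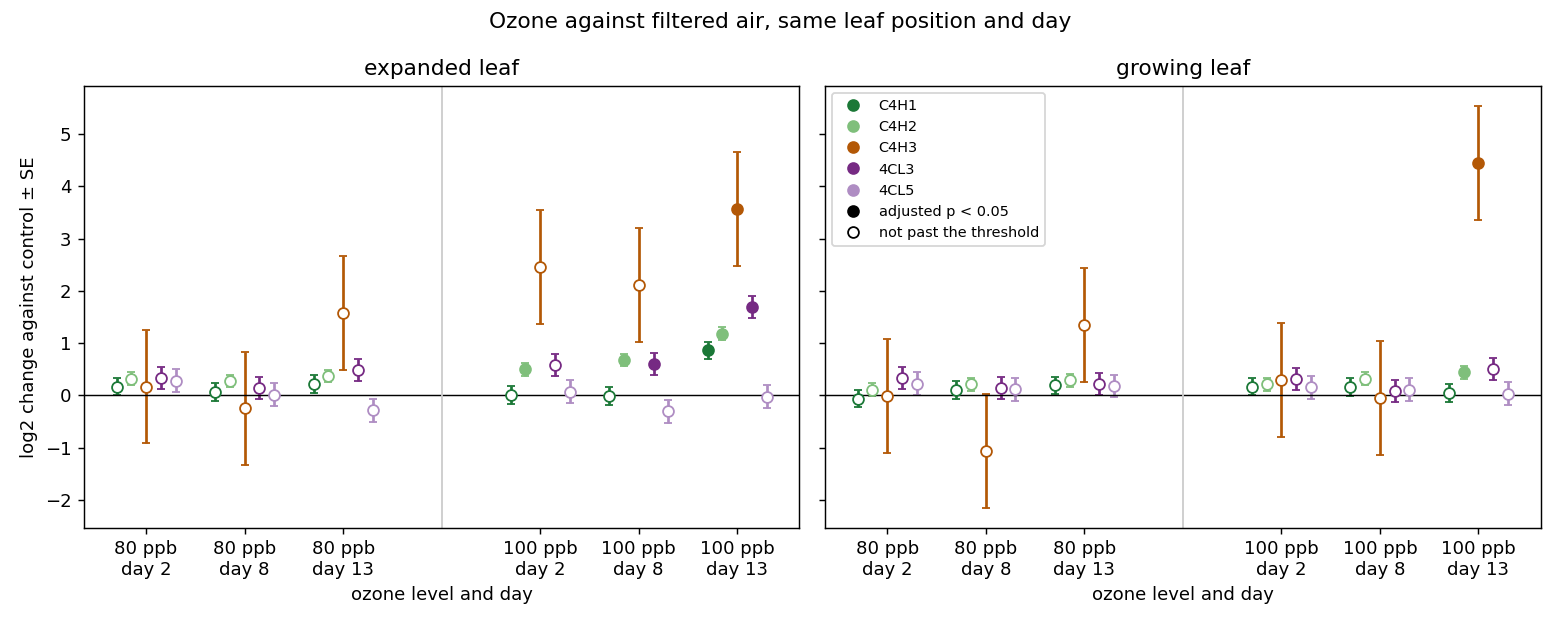
Log2 change of each member (x axis: leaf position, ozone level and day; y axis: log2 change from the matched control), with error bars for the standard error; filled symbols passed the test. In expanded leaves of day 13 at 100 ppb the changes run from −0.03 for 4CL5 to 3.56 for C4H3.

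On day 8, C4H2 had 6027, 4158, 4451 and 5672 at 100 ppb against 3053, 3071, 3271 and 3164 in controls (0.68 ± 0.12, adjusted p = 0.000222). No exposed library overlapped the controls, and the call held without each library in turn and under each of the 11 other settings. 4CL3 was called as well (0.61 ± 0.21, adjusted p = 0.035), from libraries that fell into a high and a low pair. Replicates 1 and 4 held 7486 and 7580, replicates 2 and 3 held 3818 and 3583, and the controls held 3325, 3731, 3293 and 3482. This made 2 of 5 members higher and none lower, beside 11.2% of all tested genes higher and 8.51% lower. The 4CL3 call was lost without 100 ppb replicate 1 (adjusted p = 0.199) or 4 (0.218), without control replicate 1, 2, 3 or 4 (0.0775, 0.0556, 0.0674 and 0.0569) and with the compared libraries alone (0.166). The same 2 exposed libraries stood out for C4H3, with 372 and 333.5 in replicates 1 and 4 against 12.5 and 4.66 in replicates 2 and 3, and 19.1, 7.0, 3.2 and 38.9 in controls. C4H3 was not called by limma (2.12 ± 1.09, adjusted p = 0.161). It was called by edgeR (3.38, adjusted p = 0.00799) and DESeq2 (3.40, adjusted p = 0.00611), and by limma without replicate 3 (3.21, adjusted p = 0.0305). Replicates 1 and 4 held 35.8 M and 31.6 M reads, and replicates 2 and 3 held 30.1 M and 48.3 M. Replicates 1 and 4 were also the higher pair for the mean relative level of 18 other monolignol genes described further on, at 1.33 and 1.38 against 0.93 and 0.97. The part of either in the result was not tested. C4H1 (−0.01 ± 0.17, adjusted p = 0.966) and 4CL5 (−0.30 ± 0.22, adjusted p = 0.341) were not called on day 8.

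On day 13 the exposed expanded leaves held 7775, 9309, 9553 and 7364 normalised counts of C4H1 against 5794, 4274, 5034 and 3777 in filtered air (0.86 ± 0.17, adjusted p = 5.75e-05). Its exposed level was 8500.1 ± 1092, beside 7336 ± 247 in the day 8 controls and 6836 ± 1103 in the day 2 controls, and the day 13 controls, at 4719.8 ± 883, were the lowest of the 3 control groups. C4H2 held 5071, 8118, 5898 and 4468 against 2550, 3224, 2381 and 2127 (1.18 ± 0.12, adjusted p = 7.75e-11), a level above every expanded control library of any day. 4CL3 held 6032, 11957, 8657 and 6257 against 2422, 3200, 2041 and 2273 (1.69 ± 0.21, adjusted p = 7.72e-09). In all 3 genes the lowest exposed library was above the highest control. How many of all tested genes separate in this way was not counted. The calls of C4H1, C4H2 and 4CL3 held without each library in turn and under each of the 11 other settings. All 3 changes are measured against the same 4 control libraries, in which C4H1 had fallen since day 8.

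C4H3 is the member with the lowest counts, and in expanded leaves of day 13 it held 116, 1333, 318 and 91.1 at 100 ppb against 4.58, 56.5, 17.1 and 39.7 in filtered air (3.56 ± 1.09, adjusted p = 0.00643). The groups did not overlap, but they spread widely, and the call was lost without the highest library, 100 ppb replicate 2 (2.77, adjusted p = 0.0502). Without control replicate 1, the lowest control, the change was 2.90 (adjusted p = 0.0453). 4CL5 held 263, 425, 389 and 268 against 326, 481, 302 and 271, with overlapping groups (−0.03 ± 0.22, adjusted p = 0.924, and a 95% interval of −0.48 to 0.41 with 54 degrees of freedom). The count on day 13 was therefore 4 of 5 members higher and none lower, beside 22.1% of all tested genes higher and 19% lower.

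In growing leaves, 100 ppb ozone gave no call for any member on days 2 and 8. On day 2 limma, edgeR and DESeq2 called 0 of 5 and none had an unadjusted p under 0.05, beside 0.0252% of all tested genes higher and 0.0288% lower. On day 8 all 3 tools again called 0, with 1 unadjusted p under 0.05, that of C4H2 (0.32 ± 0.12, adjusted p = 0.635), beside 0.0288% higher and 0.0108% lower. C4H2 had 3722 ± 374 against 2975 ± 184 on day 8, with all 4 exposed libraries (4121, 3960, 3424 and 3385) above the highest control (3127). The largest of the remaining changes was that of 4CL3 on day 2, at 0.31 ± 0.21 (adjusted p = 0.755), with 1101 ± 296 against 869 ± 81.9.

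On day 13 the growing leaves had 2 of 5 members higher and none lower at 100 ppb, beside 17% of all tested genes higher and 11% lower. C4H2 held 4983, 6273, 5811 and 4853 against 3951, 4238, 4213 and 3726, without overlap (0.44 ± 0.12, adjusted p = 0.00593). C4H3 held 9.67, 369, 215 and 66.0 against 0, 8.78, 3.79 and 4.38, so that the lowest exposed library stood only just above the highest control (4.45 ± 1.09, adjusted p = 0.0013). Its call held without each library in turn, with changes from 3.75 without 100 ppb replicate 2 to 5.46 without 100 ppb replicate 1 and 3.78 without control replicate 1, which had no read. It moved with the pseudocount, to 3.11 with 8 and 5.06 with 0.25. 4CL3 missed the threshold at 6602 ± 1674 against 4597 ± 615 (0.50 ± 0.21, adjusted p = 0.0749), with replicate 1, at 4932, inside the control range. It was called without that library (0.63, adjusted p = 0.0295) and with equal totals (0.64, adjusted p = 0.0268), where the median of all genes moved to 0.13. C4H1 (8905 ± 1272 against 8578 ± 1212; 0.05 ± 0.17, adjusted p = 0.858) and 4CL5 (449 ± 17.4 against 441 ± 46.6; 0.03 ± 0.22, adjusted p = 0.936) were not called. Replicate 2 was the highest exposed library for C4H1, C4H2, C4H3 and 4CL3.

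At 80 ppb no member passed the test in any of the 6 comparisons, so 0 of 30 values were called by limma, and edgeR and DESeq2 also called 0. Over all tested genes 0.0108%, 0.018% and 1.75% were called in either direction on days 2, 8 and 13 in expanded leaves. In growing leaves the shares were 0%, 0% and 0.0144%. An unadjusted p under 0.05 was found for 5 of the 30 values: 4CL3 in expanded leaves of day 13 (0.48 ± 0.21, adjusted p = 0.215) and C4H2 in 4 comparisons. The latter were expanded leaves of day 2 (0.32 ± 0.12), day 8 (0.28 ± 0.12) and day 13 (0.37 ± 0.12), and growing leaves of day 13 (0.29 ± 0.12). C4H2 on day 13 in expanded leaves came nearest the threshold, with 3165, 3227, 3427 and 3338 against 2550, 3224, 2381 and 2127 (adjusted p = 0.0983). Control replicate 2 lay inside the range of the exposed libraries and the other controls below it. C4H2 and 4CL3 both had the higher mean at 80 ppb in all 6 comparisons. For C4H2 the changes ran from 0.11 ± 0.12 in growing leaves of day 2 upwards. In those leaves 4CL3 held 1104 ± 152 at 80 ppb against 869 ± 81.9 in filtered air. The 80 and 100 ppb groups of a day share their controls, so these values do not stand apart from those at 100 ppb.

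Set directly against 80 ppb, the 100 ppb groups had 5 member values called, all higher. On day 13 in expanded leaves these were C4H1 (8500.1 ± 1092 against 5442 ± 510.2; 0.64 ± 0.17, adjusted p = 0.00391), C4H2 (5889 ± 1598 against 3289 ± 116; 0.80 ± 0.12, adjusted p = 2.06e-06) and 4CL3 (8226 ± 2757 against 3480.4 ± 764; 1.21 ± 0.21, adjusted p = 2.11e-05), beside 16.9% of all tested genes higher and 12.3% lower. C4H3, with 464 ± 588 against 75.8 ± 48.3, was not called by limma (1.99 ± 1.09, adjusted p = 0.164) and was called by edgeR (2.60, adjusted p = 0.0221), by DESeq2 (2.62, adjusted p = 0.0311) and by limma with a pseudocount of 8 (1.88, adjusted p = 0.0471). On day 8, C4H2 alone was called in expanded leaves (5077 ± 911 against 3824 ± 508; 0.40 ± 0.12, adjusted p = 0.0371; 5.11% of all tested genes higher and 3.04% lower). That call was lost without 100 ppb replicates 1 or 4 (0.31 and 0.34, adjusted p = 0.176 and 0.221), without 80 ppb replicates 1, 2 or 4 (adjusted p = 0.179, 0.0815 and 0.0657). It was also lost with equal totals (0.0526) and with the compared libraries alone (0.192). 4CL3 was called there without 100 ppb replicate 3 (0.65, adjusted p = 0.0466), and C4H3 also without it (3.47, adjusted p = 0.0336), by edgeR (4.10, adjusted p = 0.00865) and by DESeq2 (4.11, adjusted p = 0.00283).

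In growing leaves of day 13 only C4H3 was called against 80 ppb (165 ± 161 against 15 ± 19.6; 3.10 ± 1.09, adjusted p = 0.0437; 11% of all tested genes higher and 3.92% lower). The call was lost without 100 ppb replicates 2, 3 or 4 (2.40, 2.66 and 3.22, adjusted p = 0.205, 0.179 and 0.069) and without 80 ppb replicates 1, 2 or 4 (2.77, 2.84 and 2.96, adjusted p = 0.123, 0.113 and 0.117). It was also lost with no filter (0.0511), with a pseudocount of 0.25 (0.103) and with the compared libraries alone (0.146). Without 80 ppb replicate 3 the change was 3.82 and without 100 ppb replicate 1 it was 4.10. In expanded leaves of day 2 limma and edgeR called 0 members and DESeq2 called C4H3 (3.52, adjusted p = 0.0197), the 1 member with an unadjusted p under 0.05. Of all tested genes 4.42% were called higher and 2.43% lower there by limma. Limma called it without 100 ppb replicate 4, which had no C4H3 read (3.57, adjusted p = 0.0211). Without that library C4H3 was also called against the day 2 control (3.74, adjusted p = 0.0146), as it was by DESeq2 (3.19, adjusted p = 0.0305). With all libraries it held 36.3, 13.9, 79.8 and 0 against 0, 11.4, 3.07 and 0 (2.45 ± 1.09, adjusted p = 0.146). In growing leaves of days 2 and 8 no member was called by any of the 3 tools or had an unadjusted p under 0.05 against 80 ppb, and none of the tested genes was called there by limma, a share of 0%.

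The response of C4H1, C4H2 and 4CL3 to 100 ppb on day 13 was called different between leaf positions. Testing the difference itself, growing minus expanded, the response was lower by 1.19 ± 0.30 for 4CL3 (log2 difference −1.19, adjusted p = 0.0148), by 0.80 ± 0.24 for C4H1 (−0.80, adjusted p = 0.0496) and by 0.74 ± 0.18 for C4H2 (−0.74, adjusted p = 0.00867). These are 3 of 5 members with a lower and none with a higher response in growing leaves, beside 1.58% of all tested genes with a lower and 1.93% with a higher one. C4H3 (0.89 ± 1.54, adjusted p = 0.857) and 4CL5 (0.07 ± 0.31, adjusted p = 0.955) were not called. Mean counts at 100 ppb, growing and expanded, were 8905 and 8500.1 for C4H1, 5479.9 and 5889 for C4H2, 6602 and 8226 for 4CL3. In the controls they were 8578 and 4719.8, 4032 and 2571, and 4597 and 2484, in the same order of genes. Control levels were thus higher in growing leaves for all 3, and each difference includes this. All 3 calls were lost with equal totals, where the median of all genes moved to 0.23, and with the compared libraries alone. The adjusted p was then 0.132 and 0.137 for C4H1, 0.0963 and 0.202 for C4H2, and 0.0505 and 0.138 for 4CL3. The C4H1 call lay at the threshold and was lost without any one of 12 of the 16 libraries (adjusted p from 0.0572, without growing 100 ppb replicate 3, to 0.123, without expanded control replicate 4). It was also lost with no filter (0.056) and with robust eBayes (0.0504), at an unaltered log2 difference of −0.80. On days 2 and 8 no member's response differed between positions by limma, edgeR or DESeq2, and 1 value, C4H2 on day 8, had an unadjusted p under 0.05 (−0.36 ± 0.18, adjusted p = 0.339). Of all tested genes 0.187% had a higher and 0.205% a lower response on day 2, and 0.0252% and 0.0432% on day 8.

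In expanded leaves the response of the same 3 genes was larger on day 13 than on day 2, by 1.11 ± 0.30 for 4CL3 (adjusted p = 0.00993), 0.85 ± 0.24 for C4H1 (adjusted p = 0.0145) and 0.67 ± 0.18 for C4H2 (adjusted p = 0.00695). That is 3 of 5 members with a larger and none with a smaller response, beside 7.21% of all tested genes changed upwards and 5.96% downwards. The C4H1 value was lost without 100 ppb replicate 2 of day 2, the lowest of its group at 4247 (0.62, adjusted p = 0.0805). In the model of the compared libraries all 3 calls were lost (adjusted p = 0.106 for C4H1, 0.113 for C4H2 and 0.0537 for 4CL3). With equal totals, where the median of all genes moved to −0.16, those of C4H1 (0.055) and C4H2 (0.0815) were lost. In growing leaves limma and edgeR called no member (10.1% of all tested genes upwards and 3.4% downwards), and C4H3 came nearest, with 4.14 ± 1.54 (adjusted p = 0.0604), the 1 member with an unadjusted p under 0.05. DESeq2 called it (4.74, adjusted p = 0.0159), as limma did with a pseudocount of 8 (2.91, adjusted p = 0.05) and without 100 ppb replicate 1 of day 13 (5.15, adjusted p = 0.0121).

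The balance between related copies was followed as the log2 ratio of 2 members within a library, with 1 added to each count. Gene length drops out of differences of this ratio between groups, though not of the ratio itself. The library's scaling drops out as well, except where C4H3 is at or near 0. The mean ratio of 4CL3 to 4CL5 was higher at 100 ppb in expanded leaves on each day, by 0.52 on day 2 (with overlap), 0.91 on day 8 and 1.73 on day 13. On day 13 it was 4.58 ± 0.15 at 100 ppb and 2.86 ± 0.15 in filtered air (SD, n = 4), without overlap. The mean ratio of C4H1 to C4H2 was lower there on each day, by 0.49, 0.69 and 0.32, with overlapping groups on days 2 and 13. On day 8 it was 0.53 ± 0.04 against 1.22 ± 0.05, without overlap. In growing against expanded control leaves it was −0.29 ± 0.24 against 1.10 ± 0.13 on day 2 and 0.22 ± 0.21 against 1.22 ± 0.05 on day 8, while on day 13 the groups overlapped, at 1.08 ± 0.14 and 0.87 ± 0.35. The 4CL3 to 4CL5 ratio also differed between leaf positions in controls, without overlap on any day and with a turn in direction. It was 2.27 ± 0.34 in growing against 3.45 ± 0.21 in expanded leaves on day 2 (difference −1.19), 3.56 ± 0.09 against 2.98 ± 0.22 on day 8 (0.57) and 3.37 ± 0.19 against 2.86 ± 0.15 on day 13 (0.52). Each day was tested by a two-sided exact permutation test of 4 against 4 libraries, whose smallest possible p is 0.0286, and 11 of the 27 comparisons reached it. After adjustment over the 27, none passed 0.05, since the smallest adjusted p was 0.0701.

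A test of all 3 days together, with libraries permuted within each day, was chosen after the per-day values had been seen. It passed in 4 of 9 comparisons (two-sided exact permutation, adjusted over the 9). In expanded leaves at 100 ppb these were the ratio of 4CL3 to 4CL5, higher by 1.05 on the log2 scale (2.07-fold, adjusted p = 0.000157), of C4H1 to C4H2, lower (log2 difference −0.50, adjusted p = 0.00126), and of C4H1 to C4H3, lower (−2.42, adjusted p = 0.0214). In controls, the ratio of C4H1 to C4H2 was lower over the 3 days in growing than in expanded leaves (−0.73, adjusted p = 0.00276). Its daily differences were −1.39, −1.01 and 0.21 on days 2, 8 and 13, so the lower ratio was that of days 2 and 8. The ratio of 4CL3 to 4CL5, whose daily differences also have opposite signs, did not pass over the 3 days (−0.03, adjusted p = 0.872). In growing leaves at 100 ppb the same 3 ratios did not pass over the 3 days, with differences of 0.19 (adjusted p = 0.17), −0.20 (0.0725) and −1.44 (0.0725). On day 13 alone, the C4H1 to C4H2 ratio there was 0.70 ± 0.03 against 1.08 ± 0.14 in filtered air, without overlap. That of C4H1 to C4H3 was 6.67 ± 2.09 against 11.06 ± 1.25, also without overlap. The other daily comparisons of growing leaves at 100 ppb overlapped.

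**Figure D3:**
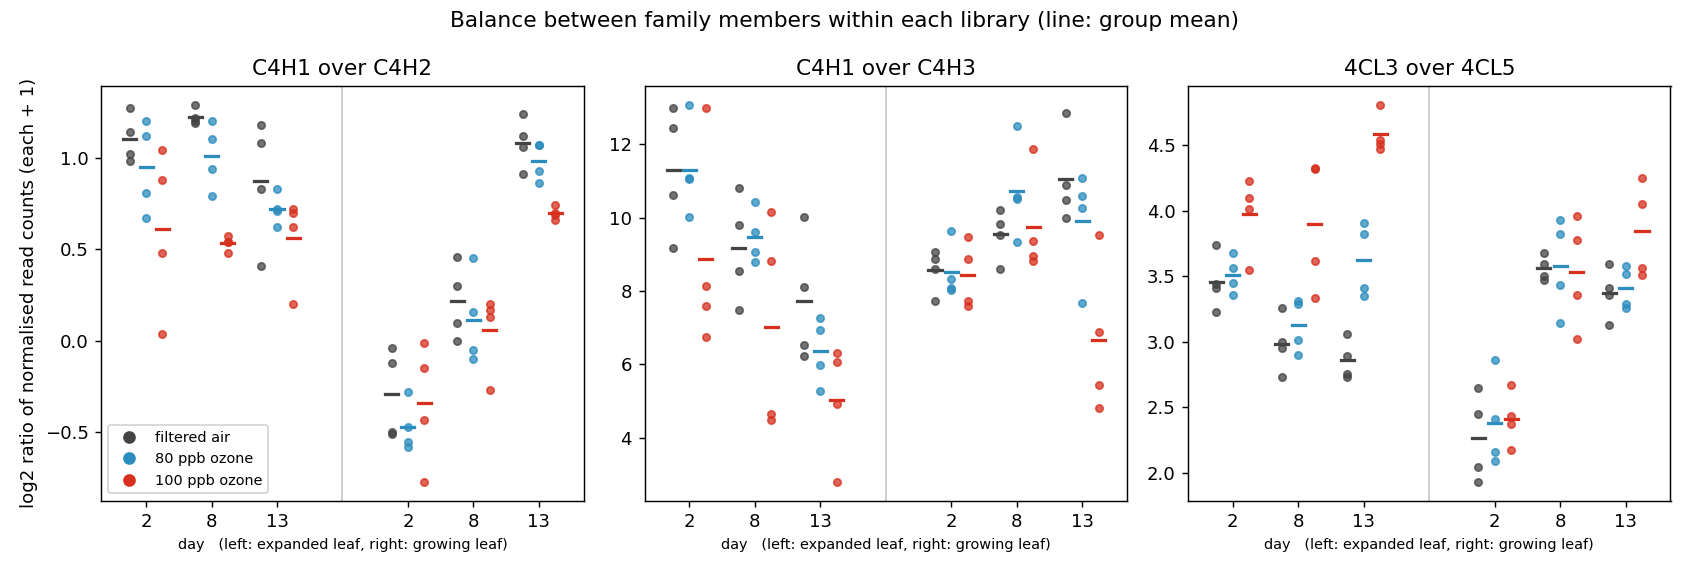
Log2 ratio of C4H1 to C4H2, C4H1 to C4H3 and 4CL3 to 4CL5 within each library (y axis) by day (x axis), with 1 point per library and expanded leaves on the left and growing leaves on the right of each panel; dark grey is filtered air, blue 80 ppb and red 100 ppb ozone, with a line at each group mean. In expanded leaves of day 13 the 4CL3 to 4CL5 ratio is 4.58 on average at 100 ppb and 2.86 in filtered air.

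Over all 18 groups, the mean level of C4H1 spanned 3.94-fold, from 2484 ± 125 in growing leaves at 80 ppb on day 2 to 9776 ± 958 in growing leaves at 80 ppb on day 13. When the groups were ordered, only 2 of the 17 steps between neighbours exceeded the larger of their 2 SDs. They separated 3 tiers: 4 of the 6 groups of day 13 and 6 of days 2 and 8 down to the expanded controls of day 2 (6836), then the expanded 80 ppb and control leaves of day 13 and the growing leaves of day 8, and last the growing leaves of day 2. For 4CL3 the span was 9.47-fold, from 869 ± 81.9 in growing controls of day 2 to 8226 ± 2757 in expanded leaves at 100 ppb on day 13, and 3 steps exceeded the SD, below the growing controls of days 13 (4597) and 8 (2301) and below the expanded controls of day 8 (3458). C4H2 spanned 2.29-fold, from 2571 ± 469 in expanded controls to 5889 ± 1598 in expanded leaves at 100 ppb, both on day 13, with no step larger than the SD. 4CL5 spanned 2.68-fold, from 186 ± 55.1 in growing controls of day 2 to 498 ± 42.8 in growing leaves at 80 ppb on day 13, where 1 step, that below the highest group, exceeded the SD. C4H3 was lowest at 1.65 ± 1.9 in growing leaves at 80 ppb on day 8, a group with 5 reads in all. Its highest mean, 464 ± 588 in expanded leaves at 100 ppb on day 13, rests on replicate 2 at 1333, and the median of that group was 217. No step between its neighbours was above the SD. It reached 10 normalised counts in 6 of 24 control libraries, 7 of 24 at 80 ppb and 15 of 24 at 100 ppb.

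Other genes of monolignol biosynthesis were called in several of the same comparisons. A list of 18 identifiers outside the members was used, all of them tested, and it is given as counts since the files pair no identifier with a name or description. The list, like the members, was chosen with earlier results of these data known, so its counts are not an independent comparison. In expanded leaves at 100 ppb 1 of the 18 was higher on day 2, 4 on day 8 and 13 on day 13, and none was lower, beside 4.74%, 11.2% and 22.1% of all tested genes called higher. The list medians were 0.24, 0.13 and 0.97 beside medians of 0, −0.01 and −0.02 over all tested genes. The count of day 2 is near that share. The largest called rise on day 13 was that of Potri.016G091100 (2.22 ± 0.48, adjusted p = 0.000171), and no listed gene was called lower. In growing leaves of day 13, 3 of the 18 were higher and none lower (list median 0.10, all genes −0.01), which is about the share of all tested genes called higher there, 17%. At 80 ppb 1 was higher, in expanded leaves of day 13 (list median 0.17, all genes −0.01), where 1.75% of all tested genes were called in either direction. In control leaves of day 2, 13 of the 18 were lower and 4 higher in growing than in expanded leaves (list median −1.29, all genes 0), beside 30.5% and 32.5% of all tested genes. On day 8, 11 were lower and 2 higher (−0.57, all genes −0.02), beside 27.2% and 27.1%. On day 13, 9 were higher and none lower (0.70, all genes −0.02), beside 15% and 10%. On day 13 at 100 ppb, C4H1, C4H2 and 4CL3 in expanded leaves thus stood at 0.86, 1.18 and 1.69 beside a list median of 0.97, and 4CL5 at −0.03.

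**Figure D4:**
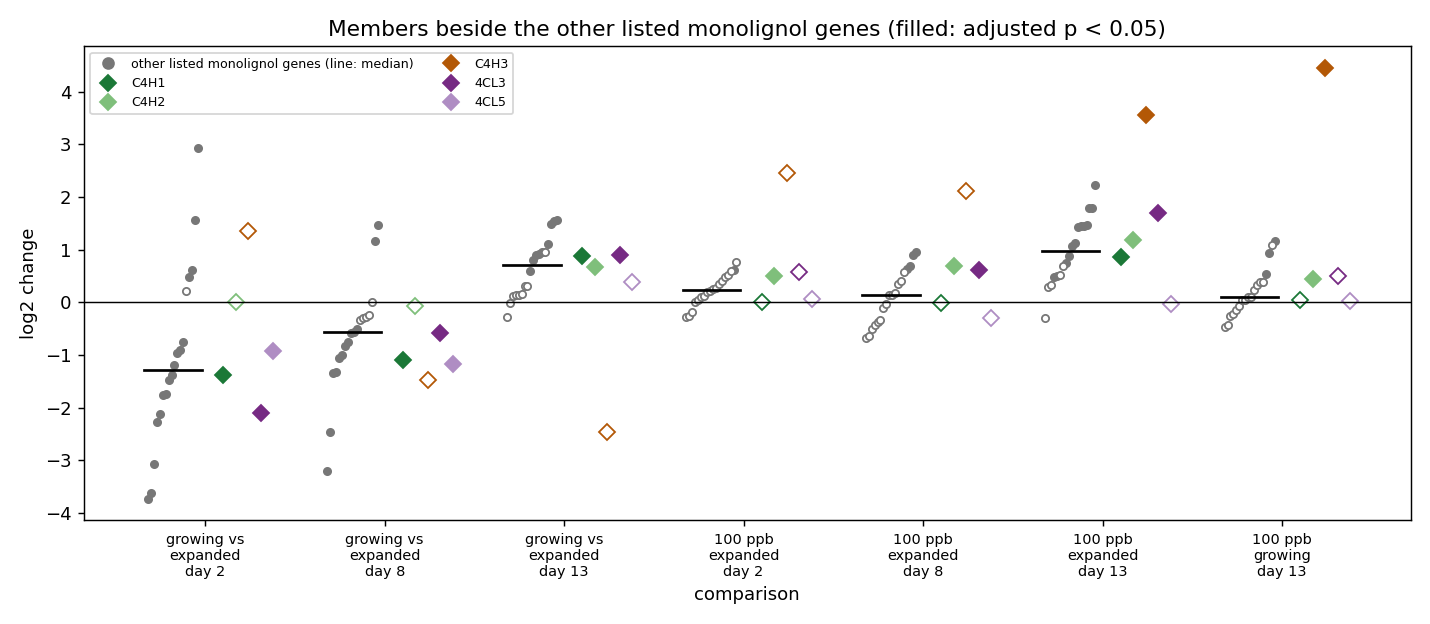
Log2 change (y axis) of the 5 members (diamonds, filled where the test was passed) and of the 18 other listed monolignol genes (grey circles, filled likewise, with a line at their median) in 7 comparisons (x axis). The list median is −1.29 for growing against expanded controls on day 2, 0.70 on day 13, and 0.97 for expanded leaves at 100 ppb on day 13.

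The genes most like each member were taken by Pearson correlation of log2 group means over the 18 groups, among 20640 other genes with a mean of at least 100 normalised counts. They are given as a description with no p, since groups of one leaf position or day are not independent points. C4H1 was nearest to Potri.008G201600 (r = 0.967), Potri.001G321600 (0.953) and Potri.012G006400 (0.953), the last of which is on the list of 18. 4CL3 was nearest to Potri.001G304800 (0.983), Potri.004G135200 (0.975) and Potri.012G006400 (0.974), of which the first and last are on the list. 4CL5 was nearest to Potri.008G177500 (0.945), Potri.016G078200 (0.933) and Potri.004G126800 (0.931). C4H2 had less close companions, led by Potri.012G144600 (0.878), Potri.004G069600 (0.877) and Potri.002G120100 (0.856), and C4H3 was nearest to Potri.008G159300 (0.983), Potri.014G025500 (0.981) and Potri.014G025600 (0.979). Of the 18 listed genes, 11 were among the 1000 genes most like C4H1, 11 for 4CL3, 8 for 4CL5, 5 for C4H2 and none for C4H3. The 1000 are out of 20640 candidates, and a count of none is near that share. Group means of C4H3 ran from 1.65 to 464, many of them at 9 normalised counts or fewer. How far its correlations rest on the few higher groups was not tested. Among the members themselves the correlation over the 18 groups was 0.93 between C4H1 and 4CL3, 0.93 between C4H1 and 4CL5, 0.78 between 4CL3 and 4CL5, 0.59 between C4H1 and C4H2, and 0.34 between C4H3 and 4CL5, the lowest.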

How the data were processed

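Leaf mRNA was sequenced in pairs of 150-base reads from stranded poly(A)-selected libraries, per the labels' protocols. The signal the authors deposited is a normalised count per gene and library. The submitters' processing notes name TopHat2, featureCounts, Subread 1.6.1 and DESeq2 1.24.0, with no roles given. A genome build was not given in the sources used here. In each column 100% of values were whole multiples of the value of 1 read within 0.01 reads (largest deviation 0.00061). Count tests therefore used recovered reads from all 72 columns, including 2 columns in which that step is within 1% of 1.

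Genes with at least 10 normalised counts in at least 4 libraries were tested, which left 27780. The test was limma 3.58.1 (R 4.3.3) on log2(value + 1), with a mean per group, all 72 libraries (54 residual degrees of freedom), eBayes with trend and Benjamini-Hochberg adjustment within each of 30 comparisons. Fold changes on this scale understate those of low genes. Groups came from the labels alone. Chi-square per gene between replicates of a group was at least 8.17, so none was counted as a repeat of another. The 5 members are named in every comparison, with the 3 most similar genes of each by correlation and the largest called change of the list at 100 ppb in expanded leaves of day 13. The members and the list of 18 monolignol genes were chosen with earlier results of these data known. Other settings tried were robust eBayes, equal totals, TMM scaling, pseudocounts of 0.25 and 8, a filter at 50 or none, the compared libraries alone, a replicate block, edgeR 4.0.16 and DESeq2 1.42.0 on recovered reads, and each library left out. Tested on simulated data with known changes for expanded leaves at 100 ppb on day 13 (27395 genes), limma recovered 73% of 2-fold and 95% of 4-fold changes. It also called 9 unchanged genes. The changed genes were drawn from those with a mean of at least 50 normalised counts, and each gene had a single spread over all groups. Whether these figures hold for C4H3, whose log2 SD ran from 0.5 to 3.12 between groups, was not tested. Leaf and xylem markers, flavonoid genes, promoter motifs and protein sequences were not used here, so the leaf identity was not checked against markers.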

Additional observations from a re-analysis of the deposited data

Results flagged for a closer look

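A library stood apart from the other 3 of its group in 5 of the 90 combinations of member and group, judged by Dixon's ratio of gap to range on log2 values with a pseudocount of 1; chance gives about 1 in 20. Replicate 4 of the growing leaves at 80 ppb on day 2 was low for both C4H3 (2.17 normalised counts, others 7.05 to 8.19) and 4CL5 (122, others 236 to 265). 4CL5 accounted for the remaining 3, with 549 in replicate 2 of the expanded leaves at 80 ppb on day 8 (others 399 to 418), 290 in replicate 3 of the expanded leaves at 100 ppb on day 8 (others 374 to 379) and 234 in replicate 2 of the growing controls of day 8 (others 179 to 184). 4CL5 was not called in an ozone comparison of these groups with or without these libraries.

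The response to 100 ppb ozone was called different between leaf positions on day 13, growing minus expanded, for C4H1 (−0.80 on the log2 scale), C4H2 (−0.74) and 4CL3 (−1.19). Each of these calls was lost with equal totals and with the compared libraries alone. That of C4H1 was also lost without any one of 12 of the 16 libraries. In expanded leaves the response was called different between day 13 and day 2 for C4H1 (0.85), C4H2 (0.67) and 4CL3 (1.11). These calls were all lost with the compared libraries alone, and those of C4H1 and C4H2 with equal totals.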

How the results depend on the processing

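Of the counts of member calls, those of the 100 ppb comparisons (9), the 80 ppb comparisons (0), the leaf positions (9) and the control time course (7) stayed within 1.5 times under all 11 other settings and without each library in turn. Those settings gave 7 to 11, 0, 9 to 11 and 6 to 7 calls, and leaving out libraries 8 to 10, 0, 8 to 10 and 6 to 8. In the same order, the counts are out of 30, 30, 15 and 20 values. Of all tested genes 16.2%, 0.298%, 47.4% and 33.6% were called over the same comparisons. The counts of the 80 ppb comparisons and of the control time course are near that share. The 5 calls of 100 against 80 ppb, out of 30 values and beside 9.86% of all tested genes, were less stable. They became 3 with the compared libraries alone and 8 by DESeq2 (4 to 7 without 1 library). The 3 differences between leaf positions (out of 15 values, beside 1.32% of all tested genes) became 0 with equal totals and 0 with the compared libraries alone (2 to 3 without 1 library). The 3 changes over time (out of 10 values, beside 13.3% of all tested genes) became 1 and 0 under the same settings (2 to 4 without 1 library). The cause was not tested, except that the compared libraries alone leave fewer samples for the spread. For the ratios, 0 of 27 passed with a pseudocount of 1, 8 or 0.25, and 4 of 9 in the test of all days together, which was chosen after seeing the data. None of the 25 comparisons checked met the rule set for pairing by replicate number. In none were all 4 same-numbered pairs correlated above 0.1 (r from −0.32 to 0.58), and in 0 did all 4 libraries correlate best with their own number. That rule asks for all 4 pairs and cannot exclude pairing. Growing and expanded leaves of the same ozone group were not among the comparisons, so pairing between them was not tested. With the replicate number as a block the counts were 9, 0, 9, 7, 5, 2 and 3 in the order above, the call lost being C4H1 in the difference between positions on day 13 (−0.80, limma adjusted p = 0.0534). C4H3 had 4698 reads over all libraries; how far depth limits it was not tested.

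No called value changed sign under any setting or left-out library. Of 3050 recomputed log2 changes 103 changed sign, none of them called in either fit, with adjusted p of at least 0.149. Those under another setting number 23. With a pseudocount of 8 they were 0.08 for C4H3 (100 ppb against control, growing leaves of day 8), −0.04 for C4H3 (80 ppb against control, expanded leaves of day 2), 0.01 for C4H3 (80 ppb against control, growing leaves of day 2), 0.01 for C4H3 (growing control leaves of day 13 against day 8). With TMM scaling they were −0.02 for C4H1 (100 ppb against control, expanded leaves of day 2), −0.01 for C4H2 (growing against expanded control leaves of day 2). With equal totals they were 0.05 for C4H1 (100 ppb against control, expanded leaves of day 8), 0 for C4H3 (100 ppb against control, growing leaves of day 8), 0.25 for C4H2 (expanded control leaves of day 8 against day 2), 0.15 for 4CL3 (expanded control leaves of day 8 against day 2), −0.04 for 4CL5 (growing control leaves of day 8 against day 2), 0.03 for 4CL3 (100 against 80 ppb, growing leaves of day 2), 0.04 for 4CL5 (100 against 80 ppb, growing leaves of day 8). By edgeR on recovered reads they were 0.37 for C4H3 (100 ppb against control, growing leaves of day 8), −0.26 for C4H3 (80 ppb against control, expanded leaves of day 2), 0 for C4H2 (growing against expanded control leaves of day 2), 0.13 for C4H3 (growing control leaves of day 13 against day 8). By DESeq2 on recovered reads they were 0 for C4H1 (100 ppb against control, expanded leaves of day 8), 0.35 for C4H3 (100 ppb against control, growing leaves of day 8), −0.33 for C4H3 (80 ppb against control, expanded leaves of day 2), 0.02 for C4H3 (80 ppb against control, growing leaves of day 2), 0.14 for C4H3 (growing control leaves of day 13 against day 8), 0 for 4CL5 (100 against 80 ppb, growing leaves of day 8). The C4H1 to C4H3 ratio of growing against expanded controls on day 8 was −0.22 with a pseudocount of 8. The other 80 sign changes belong to 37 values recomputed without 1 library, and their ranges follow. C4H1 ran from −0.11 to 0.24 and 4CL5 −0.13 to 0.27 for 100 ppb against control, expanded leaves of day 2. C4H3 ran from −0.30 to 0.91 for 80 ppb against control, expanded leaves of day 2. C4H2 ran from −0.05 to 0.08 for growing against expanded control leaves of day 2. 4CL5 ran from −0.30 to 0.09 and C4H3 −0.18 to 1.93 in the change of the response over time in expanded leaves. C4H2 ran from −0.06 to 0.03 for expanded control leaves of day 8 against day 2. 4CL5 ran from −0.11 to 0.35 and C4H1 −0.07 to 0.29 in the difference between positions on day 2. C4H1 ran from −0.28 to 0.07 for 100 against 80 ppb, expanded leaves of day 2. 4CL5 ran from 0 to 0.41 and C4H3 −0.05 to 0.60 for 100 ppb against control, growing leaves of day 2. C4H1 ran from −0.13 to 0.07 and C4H3 −0.21 to 0.34 for 80 ppb against control, growing leaves of day 2. 4CL5 ran from −0.06 to 0.24 for growing control leaves of day 8 against day 2. 4CL5 ran from −0.38 to 0.03 in the change of the response over time in growing leaves. 4CL5 ran from −0.32 to 0.19, 4CL3 −0.19 to 0.13 and C4H3 −0.03 to 0.63 for 100 against 80 ppb, growing leaves of day 2. 4CL5 ran from −0.10 to 0.07, C4H3 −0.79 to 0.29 and C4H1 −0.02 to 0.11 for 80 ppb against control, expanded leaves of day 8. C4H1 ran from −0.09 to 0.07 for 100 ppb against control, expanded leaves of day 8. C4H1 ran from −0.15 to 0.01 for 100 against 80 ppb, expanded leaves of day 8. C4H3 ran from −0.41 to 0.67, 4CL3 −0.07 to 0.24 and 4CL5 −0.03 to 0.26 for 100 ppb against control, growing leaves of day 8. C4H3 ran from −0.64 to 0.45 for growing control leaves of day 13 against day 8. 4CL5 ran from −0.15 to 0.13, C4H1 −0.09 to 0.26 and 4CL3 −0.22 to 0.11 for 100 against 80 ppb, growing leaves of day 8. C4H1 ran from −0.10 to 0.25 and 4CL3 −0.03 to 0.30 for 80 ppb against control, growing leaves of day 8. 4CL5 ran from −0.16 to 0.14 for 100 ppb against control, expanded leaves of day 13. 4CL5 ran from −0.10 to 0.19 in the difference between positions on day 13. C4H1 ran from −0.03 to 0.13 and 4CL5 −0.03 to 0.08 for 100 ppb against control, growing leaves of day 13.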
